A study of Mus musculus with 19 samples.

Results

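Alternative Exhausted was the name the authors gave to 1 of 13 clusters of CD8 T cells, and its members were taken as every cell carrying that name. There were 4473 such cells among 41099 cells in 9 expression libraries, or 10.9% of the series. Of these, 4135 came from tumours and 338 from spleens. The closest cluster by name, Activated Exhausted, held 5289 cells and served as the comparison, and both together are called exhausted cells here.

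All libraries came from C57BL/6J mice injected with A223, a squamous cell carcinoma line that the labels call C57BL/6-derived, and no library came from a mouse without A223. CD8 T cells were sorted by flow cytometry after digestion of the tumour with liberase. A regressing (regressor) group and a growing (progressor) group had 3 tumour libraries each, and 2 spleens of regressing and 1 of growing mice were read as well. Ages, times after injection and whether a library pooled animals are not given in the sources used here, so p-values measure the spread between these libraries, which may be technical. Replicate 1 of each tumour group was made with the 3′ kit and carries no T cell receptor label, and the other 7 libraries were made with the 5′ kit.

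Exhaustion is a state of T cells under lasting antigen contact, in which inhibitory receptors stay on and cytokine output falls. It is usually read from Pdcd1, which encodes the receptor PD-1, and from Havcr2 and Lag3, which encode other inhibitory receptors. Tox encodes a nuclear factor of the exhausted state, and Entpd1 the surface enzyme CD39. Levels of these 5 genes in single cells were not analysed here, so the name was not checked against its markers and is used as the authors' label. A T cell clone shares 1 receptor, and its antigen contact is made mainly by the CDR3 loops of the alpha and beta chain. The deposited table names clones by these loops. Here a named clone is given by its number within its library, counted from 1 for the clone with the most cells.

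The tumour libraries held 217, 1013 and 1634 Alternative Exhausted cells in regressing tumours 1, 2 and 3, and 265, 715 and 291 in growing tumours 1, 2 and 3. The spleens held 155 and 133 in regressing spleens 2 and 3 and 50 in growing spleen 3. Cells of the cluster carried 871 to 44968 UMIs (unique transcript counts), with a median of 7601. Total UMIs per library ran from 10611320 to 58661165. Of the barcodes, 988 occurred in 2 or more libraries and 220 Alternative Exhausted cells carried one of them. No shared barcode carried 1 named clone in both libraries. Named clones occur only in 4 tumour libraries, so pairs with any other library could not give such a match.

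Regressing tumour 3 held the most Alternative Exhausted cells for its size. Their share there was 22.5%, with an exact 95% interval of 21.5 to 23.4. Regressing tumours 1 and 2 had 13.1% (11.5 to 14.8) and 12.9% (12.2 to 13.7). The 3 growing tumours lay between, at 14.8% (13.2 to 16.5), 16.8% (15.7 to 17.9) and 16.9% (15.1 to 18.7). The means were 16.1% ± 1.16 in growing and 16.2% ± 5.45 in regressing tumours (SD, n = 3 each), and the groups overlapped (two-sided exact permutation p = 1, where 3 libraries against 3 cannot go below 0.10; adjusted p = 1 over 13 clusters). In this comparison 30.8% of the clusters did not overlap. Intervals here and below cover counting error only. The difference of -0.0242 percentage points became 3.02 among non-dividing cells and 3.12 without regressing tumour 3 (exact permutation p = 0.40 and 0.20).

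One clone was prominent in that high share. Clone 1 of regressing tumour 3 supplied 842 of 1256 receptor-labelled Alternative Exhausted cells, or 67.0% (exact 95% interval 64.4 to 69.6). Without its 2137 cells the Alternative Exhausted share of the library was 15.4%. Without the largest clone of each library the others stood at 13.5% in regressing tumour 2, 17.1% in growing tumour 2 and 14.7% in growing tumour 3.

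**Figure D1:**
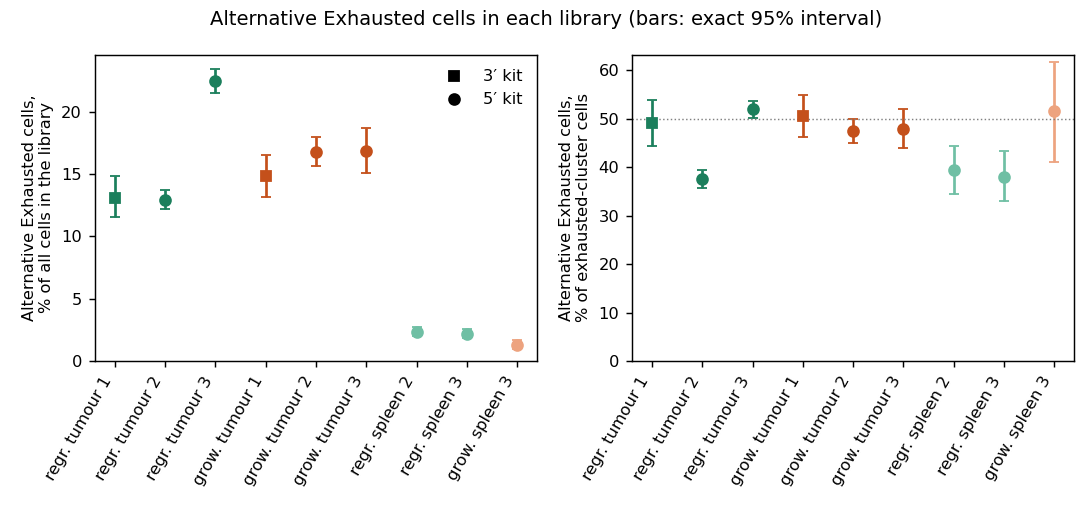
Alternative Exhausted cells in each of 9 libraries as a percent of all cells (left) and of exhausted cells (right), with exact 95% intervals; squares are 3′ and circles 5′ libraries. Regressing tumour 3 is highest at left with 22.5%, spleens lie under 3%, and at right regressing tumour 2 stands lowest of the tumours at 37.5%.

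Exhausted cells in 5 of 6 tumours were 47.5% to 52.0% Alternative, the others being Activated. Alternative cells were 49.2% of exhausted cells in regressing tumour 1, 37.5% in regressing tumour 2 and 52.0% in regressing tumour 3. They were 50.6%, 47.5% and 47.9% in growing tumours 1, 2 and 3. Regressing tumour 2 was thus the low library, with an exact 95% interval of 35.7 to 39.4. The means were 48.7% ± 1.67 in growing and 46.2% ± 7.68 in regressing tumours (SD, n = 3 each; exact permutation p = 0.90). Without regressing tumour 2 the sign of the difference turned, from 2.44 to -1.93 percentage points.

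Spleens held far fewer of these cells. Alternative Exhausted cells were 2.35%, 2.21% and 1.27% of cells in regressing spleens 2 and 3 and growing spleen 3, and 1.94% ± 0.587 on average (SD, n = 3). The 4 tumours of the 5′ kit averaged 17.3% ± 3.92, 15.3 percentage points higher, without overlap (exact permutation p = 0.0286, the smallest that 4 libraries against 3 allow; adjusted p = 0.0531 over 13 clusters). In that comparison 69.2% of clusters did not overlap. Among non-naive cells the spleens held 5.96%, 4.65% and 4.19%, and the difference was 13.3 percentage points.

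Tumours and spleens overlapped in how their exhausted cells divided. Alternative cells were 39.4%, 38.1% and 51.5% of exhausted cells in the spleens, the last from 97 cells with an interval of 41.2 to 61.8. The means were 46.2% ± 6.15 in 4 tumours and 43.0% ± 7.40 in 3 spleens (SD; exact permutation p = 0.543).

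Receptor names were compared next, since they come from the receptor chains and not from the cluster call. Whether receptor genes took part in the clustering was not checked. Receptor labels covered 2583 Alternative Exhausted cells of 4 tumours, and 2094 of these belonged to named clones. Named clones made up 58.1% and 94.5% of labelled Alternative cells in regressing tumours 2 and 3 and 68.6% and 88.0% in growing tumours 2 and 3. The libraries of 1 group differed by more than the groups, whose means were 78.3% ± 13.7 in growing and 76.3% ± 25.8 in regressing tumours (SD, n = 2 each; exact permutation p = 1, where 2 against 2 cannot go below 0.33). Without regressing tumour 2 the difference of 2.01 was -16.2 percentage points, and without regressing tumour 3 it was 20.2.

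Named clones sat in the cluster more often than the authors' pooled class of remaining labelled cells (Other) in 3 of 4 tumours. That was not particular to this cluster, since named clones also sat more often in Activated Exhausted in each of the 4. In regressing tumour 2 Activated Exhausted held 728 of 2588 named and 207 of 1595 Other cells. The counts were 929 of 3852 and 119 of 1088 in regressing tumour 3. They were 400 of 1609 and 220 of 1568 in growing tumour 2, and 219 of 981 and 28 of 315 in growing tumour 3. Shares are over the cells of all clusters. In regressing tumour 3, 30.8% of named cells and 6.34% of Other cells were Alternative Exhausted. In growing tumour 2 these shares were 26.0% and 12.2%, and in growing tumour 3 they were 21.6% and 9.21%. Regressing tumour 2 went the other way, with 10.7% of named cells and 12.5% of Other cells. The mean difference was 12.2 ± 10.8 percentage points (SD, n = 4; exact sign-flip p = 0.25, where 4 libraries cannot go below 0.125). Without regressing tumour 3 it was 8.12 percentage points.

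The choice between the exhausted clusters did not follow that order. Alternative cells were 27.6% of named and 49.1% of Other exhausted cells in regressing tumour 2. In regressing tumour 3 they were 56.1% of named and 36.7% of Other cells. The classes lay close in growing tumour 2, at 51.1% and 46.5%, and in growing tumour 3, at 49.2% and 50.9%. The difference was thus positive in 2 of 4 libraries, with a mean of 0.189 ± 17.0 percentage points (SD; exact sign-flip p = 1).

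Single clones differed far more than these classes. Named clones with 20 or more exhausted cells in a library were compared with the other labelled exhausted cells of that library. Of 45 such clone entries, from 42 clones, 14 had an exact interval above the rest (31.1%) and 13 below it (28.9%), 60% in either direction, and 18 included it. They held 1953 of the 2094 named Alternative cells, and 33 entries with fewer exhausted cells were not compared. These intervals compare the cells of 1 clone in 1 library, which are not replicates. The Alternative share of a clone's exhausted cells ran from 4.44% to 84.9%, with a median of 47.5%. Regressing tumour 2 had 3 entries above and 4 below of 15, and regressing tumour 3 had 3 and 6 of 14. Growing tumour 2 had 7 above and 2 below of 11, and growing tumour 3 had 1 and 1 of 5. The rest in growing tumour 2 was lowered by its largest clone, clone 1, without which its labelled exhausted cells stood at 55.5%. Of the 7 entries above, clones 5 and 7 had lower limits over that value, at 74.6% and 61.5%. The lower limits of the others, clones 3, 4, 6, 10 and 12, lay under it, at 49.8% to 52.8%.

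**Figure D2:**
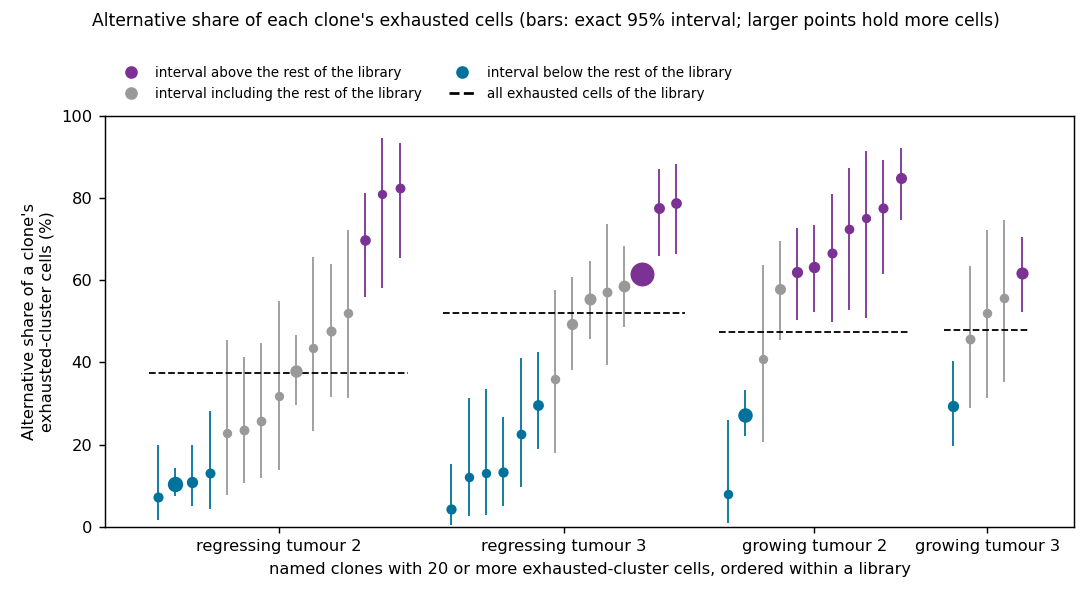
Alternative share of exhausted cells in each named clone with 20 or more exhausted cells, ordered within 4 tumours; bars are exact 95% intervals, colours the position against the rest of the library, and dashed lines the share over all exhausted cells of the library. Shares run from 4.44% to 84.9%, and 14 of 45 intervals lie above and 13 below the rest of the library.

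Growing tumour 2 held the clone with the highest Alternative share, its clone 5, whose name has a pair of alpha chains. Of its 73 exhausted cells, 62 were Alternative (84.9%, exact 95% interval 74.6 to 92.2), where the rest of the library stood at 47.3%. Regressing tumour 2 followed with clone 13, at 28 of 34 (82.4%, 65.5 to 93.2, rest 32.6%), and clone 19, at 17 of 21 (81.0%, 58.1 to 94.6, rest 33.1%). Regressing tumour 3 came next with clone 10, at 48 of 61 (78.7%, 66.3 to 88.1, rest 53.9%), and clone 3, at 52 of 67 (77.6%, 65.8 to 86.9, rest 53.8%). These 5 clones carried 5 different beta chains.

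At the other end, the 5 lowest clones were mostly Activated Exhausted. Clone 6 of regressing tumour 3 had 2 Alternative cells of 45 (4.44%, exact 95% interval 0.543 to 15.1), where the rest of its library stood at 55.5%. Clone 4 of regressing tumour 2 had 3 of 41 (7.32%, 1.54 to 19.9). Clone 9 of growing tumour 2 had 2 of 25 (8.00%, 0.984 to 26.0). The largest clone of regressing tumour 2, clone 1, had 34 of 323 (10.5%, 7.40 to 14.4), and its clone 2 had 9 of 82 (10.98%, 5.14 to 19.8). Without clone 1, Alternative cells were 41.2% of that library's exhausted cells in place of 37.5%.

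The clones that filled the cluster were different from library to library. In regressing tumour 2 clones 3, 9 and 1 had 50, 39 and 34 Alternative cells, or 10.5%, 8.18% and 7.13% of its labelled Alternative cells. In regressing tumour 3 clone 1 was followed by clone 2 with 62 cells (4.94%) and clone 4 with 61 (4.86%), whose name is the chains of clone 1 with another alpha chain. In growing tumour 2 clones 1, 5 and 3 had 71, 62 and 55 Alternative cells (11.7%, 10.2% and 9.03%). In growing tumour 3 clones 1, 2 and 5 had 74, 24 and 16 (30.7%, 9.96% and 6.64%).

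A large clone was not always inclined to this cluster. Clone 1 of growing tumour 2 had the most Alternative cells of its library, yet 189 of its 260 exhausted cells were Activated (Alternative 27.3%, exact 95% interval 22.0 to 33.2, rest of library 55.5%). Clone 2 of growing tumour 3 also lay below, with 24 of 82 (29.3%, 19.7 to 40.4, rest 53.4%). Above the rest were clone 1 of regressing tumour 3 with 842 of 1367 (61.6%, 59.0 to 64.2, rest 44.2%) and clone 1 of growing tumour 3 with 74 of 120 (61.7%, 52.4 to 70.4, rest 45.4%).

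The probability that a pair of named cells shared a clone measured how concentrated each cluster was, in a form that does not depend on cluster size. It was 9.30% in Alternative and 19.1% in Activated Exhausted cells of regressing tumour 2, and 10.5% and 24.8% in growing tumour 2. It went the other way in regressing tumour 3, at 51.4% and 33.5%, and in growing tumour 3, at 15.8% and 13.7%. Alternative minus Activated averaged -1.03 ± 14.4 percentage points (SD, n = 4; exact sign-flip p = 1).

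In 3 cases a clone of the same name had 10 or more exhausted cells in each of 2 tumours, so that 1 receptor could be read in different libraries. The first was low in both, with 2 of 25 Alternative as clone 9 of growing tumour 2 (8.00%) and 3 of 23 as clone 8 of regressing tumour 3 (13.04%, exact 95% interval 2.78 to 33.6). The second stood at 61.7% as clone 1 of growing tumour 3 and at 47.5% as clone 7 of regressing tumour 2 (19 of 40, 31.5 to 63.9), where the rest stood at 45.4% and 33.4%. The third stood at 66.7% as clone 6 of growing tumour 2 (26 of 39, 49.8 to 80.9) and at 22.7% as clone 6 of regressing tumour 2 (5 of 22, 7.82 to 45.4). The intervals of this last receptor did not overlap, while the rest of the libraries stood at 49.0% and 34.0%.

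Of 6 beta chains with 2 or more entries, some spread widely and others did not. The beta chain of the lowest clone, clone 6 of regressing tumour 3, occurred in 6 entries of 3 libraries with shares from 4.44% to 66.7%, 1 of them above and 2 below the rest. In regressing tumour 2 it belonged to clones 4, 6 and 12, at 7.32%, 22.7% and 52.0% (13 of 25). In regressing tumour 3 it also belonged to clone 13, a name with a pair of alpha chains, at 57.1% (20 of 35). The beta chain of clone 1 of regressing tumour 3 spread as well, from 61.6% in that clone to 22.6% in clone 11 (7 of 31), which has another alpha chain. Narrower were a beta chain with entries at 31.8% and 43.5% in regressing tumour 2, and that of clone 1 of growing tumour 3, at 61.7% and 47.5% in 2 libraries. A further one was high in both of its libraries, at 69.6% in clone 9 of regressing tumour 2 (39 of 56) and 63.2% in clone 3 of growing tumour 2 (55 of 87). The remaining beta chain lay under the rest in 3 of 3 entries of 2 libraries, 2 of them with the whole interval. Its shares ran from 8.00% to 40.9%.

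The last 7 residues of the alpha loop, which are encoded mostly by the joining segment, were then compared, a choice made after the values were seen and therefore not tested. One ending was shared by clones 1 and 9 of growing tumour 2, clones 5 and 8 of regressing tumour 2 and clones 8 and 9 of regressing tumour 3. All 6 entries lay under the rest of their library, 5 of them with the whole interval, and the highest was 27.3%. They are not independent, since 3 of the 6 carry the same whole alpha chain. That chain joined with another in clone 14 of growing tumour 2 stood at 40.9% (9 of 22, exact 95% interval 20.7 to 63.6). Another ending, in clones 2 and 12 of growing tumour 2 and clone 3 of regressing tumour 3, lay over the rest in 3 of 3 entries, from 57.7% to 77.6%, 2 of them with the whole interval. The most frequent ending, with 12 entries, had no single direction: shares ran from 4.44% to 78.7%, 5 above and 3 below. The beta loop had a median of 14 residues both in entries above and in entries below.

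Receptor similarity groups, which the authors formed with GLIPH, a method that groups receptors likely to share a target, gave a coarser view. Group2 made up 74.3% of labelled Alternative cells of regressing tumour 3 (933 cells) and 58.1% of its Activated Exhausted cells. Group3 made up 20.03% of labelled Alternative cells of growing tumour 2 and 49.5% of its Activated cells. Group1 made up 15.3% against 41.8% in regressing tumour 2, and 13.3% against 7.74% in growing tumour 2. Group4 was the largest group in growing tumour 3, with 30.7% against 18.6%.

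Group3 was low in each tumour where it had 20 or more exhausted cells. Alternative cells were 28.4% of its exhausted cells in growing tumour 2 (122 of 429) and 13.04% in regressing tumour 3 (3 of 23). In regressing tumour 2 Group3 stood at 24.3% (9 of 37), and its exact 95% interval of 11.8 to 41.2 included the rest, at 34.0%. It lay below the rest of the library in 3 of 3 tumours, by 28.0 ± 16.5 percentage points (SD; exact sign-flip p = 0.25, the smallest possible; adjusted p = 0.375 over 2 groups tested). The alpha chain that clones 1 and 9 of growing tumour 2 share belongs to this group, so both descriptions share cells. Most of its exhausted cells came from 1 clone in each tumour. These were clone 1 of growing tumour 2 (260 of 429), clone 11 of regressing tumour 2 (31 of 37) and clone 8 of regressing tumour 3 (all 23). Clone 8 of regressing tumour 3 carries that same alpha chain.

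Group1 was less uniform. Its Alternative share was 15.7% in regressing tumour 2 (73 of 464), 33.7% in regressing tumour 3 (34 of 101), 37.9% in growing tumour 3 (11 of 29) and 62.8% in growing tumour 2 (81 of 129). It lay below the rest in 3 of 4 tumours, by 11.5 ± 18.6 percentage points on average (SD; exact sign-flip p = 0.375, adjusted p = 0.375). That mean was -20.3 percentage points without growing tumour 2 and -6.40 without regressing tumour 2 (exact sign-flip p = 0.25 and 0.75). In spleens Group1 stood at 25.6% (22 of 86) and 17.7% (14 of 79) in regressing spleens 2 and 3, where the rest stood at 53.3% and 42.2%.

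The remaining groups had 20 or more exhausted cells in 1 or 2 tumours and were not tested. Group8 was high in both of its tumours, at 71.0% in regressing tumour 2 (49 of 69) and 64.6% in growing tumour 2 (95 of 147). Group4 stood at 46.4% in regressing tumour 2 and 61.7% in growing tumour 3. Group5 differed between its tumours, at 81.9% in growing tumour 2 (86 of 105) and 29.3% in growing tumour 3 (24 of 82). Group9 differed as well, at 13.5% in regressing tumour 2 (12 of 89) and 79.2% in regressing tumour 3 (61 of 77). In regressing spleen 2, Group9 stood at 76.5% (13 of 17, exact 95% interval 50.1 to 93.2), above the 13.5% (7.17 to 22.4) of the tumour of the same number. Group7 stood at 49.4% in regressing tumour 3 (40 of 81) and 77.8% in growing tumour 3 (14 of 18). Group2 stood at 60.5% in regressing tumour 3 and at 36.1% in regressing spleen 3 (13 of 36, 20.8 to 53.8). Group values here and above share cells with the clone values, and several hold mostly 1 clone. In growing tumour 3, clone 2 supplied all 82 exhausted cells of Group5 and clone 1 all 120 of Group4. Clone 5 of growing tumour 2 supplied 73 of 105 in Group5. In regressing tumour 3, clone 1 supplied 1367 of 1542 in Group2, clone 3 67 of 77 in Group9 and clone 5 all 81 in Group7. Clone 2 of regressing tumour 2 supplied 82 of 89 in Group9, and its clone 1 supplied 323 of 464 in Group1.

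**Figure D3:**
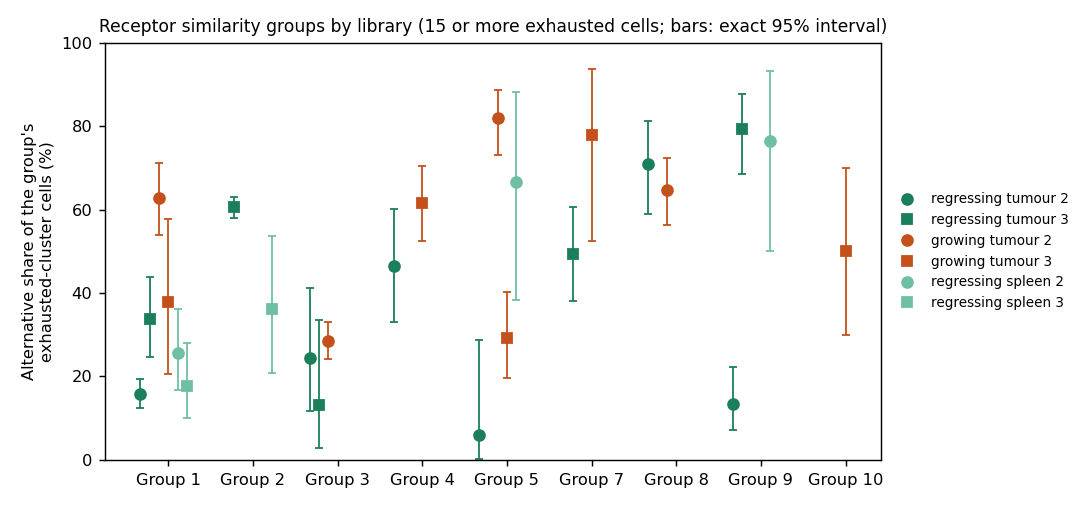
Alternative share of exhausted cells in each receptor similarity group and library with 15 or more exhausted cells, with exact 95% intervals; colours mark group and tissue, circles replicate 2 and squares replicate 3. Group3 lies under 30% in 3 tumours and Group8 over 60% in 2, while Group5 and Group9 spread from 5.88% to 81.9% and from 13.5% to 79.2%.

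Spleen cells were labelled only as a pooled class of large spleen clones (Top_Spleen) or as Other. Top_Spleen cells were more often in the cluster than Other cells in both regressing spleens. In regressing spleen 2, 18.1% of 310 Top_Spleen cells were Alternative Exhausted (exact 95% interval 13.9 to 22.8), against 1.00% of 3892 Other cells. In regressing spleen 3 the shares were 8.59% of 396 cells (6.02 to 11.8) and 1.12% of 3745. The order was not particular to this cluster. Activated Exhausted held 75 of the 310 Top_Spleen and 53 of the 3892 Other cells in regressing spleen 2. In regressing spleen 3 it held 93 of 396 and 57 of 3745. Growing spleen 3 had 10 Top_Spleen cells, 2 of them Alternative. Within exhausted cells, Top_Spleen and Other were at 42.7% and 42.4% in regressing spleen 2 and at 26.8% and 42.4% in regressing spleen 3.

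Cell measures come from the same RNA that defined the clusters, so Alternative and Activated cells are only described side by side. Median UMIs per Alternative cell were 6214, 6266 and 8350.5 in regressing tumours 1, 2 and 3 and 7144, 8499 and 12752 in growing ones. Those of Activated cells were 6391, 5846 and 7089, and 6096, 8116 and 12025.5. Alternative cells had the higher median in 5 of 6 tumours and 7 of 9 libraries. Median genes per Alternative cell were 2001, 1960 and 2400, and 2116, 2353 and 3084. The median mitochondrial share of UMIs was 1.82%, 2.01% and 1.72% in regressing and 1.82%, 2.16% and 1.76% in growing tumours. It was higher than in Activated cells in 6 of 6 tumours, by at most 0.102 percentage points. In spleens it was 2.51%, 2.36% and 2.82%.

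Fewer Alternative than Activated Exhausted cells were called in S phase, the phase of DNA copying, in 9 of 9 libraries. The calls come from scores of S and G2M genes, and cycling is not read from them alone. S-phase calls covered 17.5%, 16.6% and 19.2% of Alternative cells in regressing tumours 1, 2 and 3, and 18.8%, 22.8% and 26.8% of Activated cells. In growing tumours they covered 13.2%, 14.0% and 14.1% of Alternative and 15.4%, 20.6% and 19.0% of Activated cells. In spleens the shares were 9.68%, 12.8% and 6.00%, against 25.2%, 26.4% and 12.8%. Median S scores were lower in Alternative cells in 9 of 9 libraries and median G2M scores in 9 of 9. G2M calls were few, at 2.76%, 2.57% and 3.67% in regressing and 0.755%, 1.40% and 2.41% in growing tumours. No Alternative cell of regressing spleens 2 and 3 was called in G2M, which allows shares of up to 1.94% and 2.26%.

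**Figure D4:**
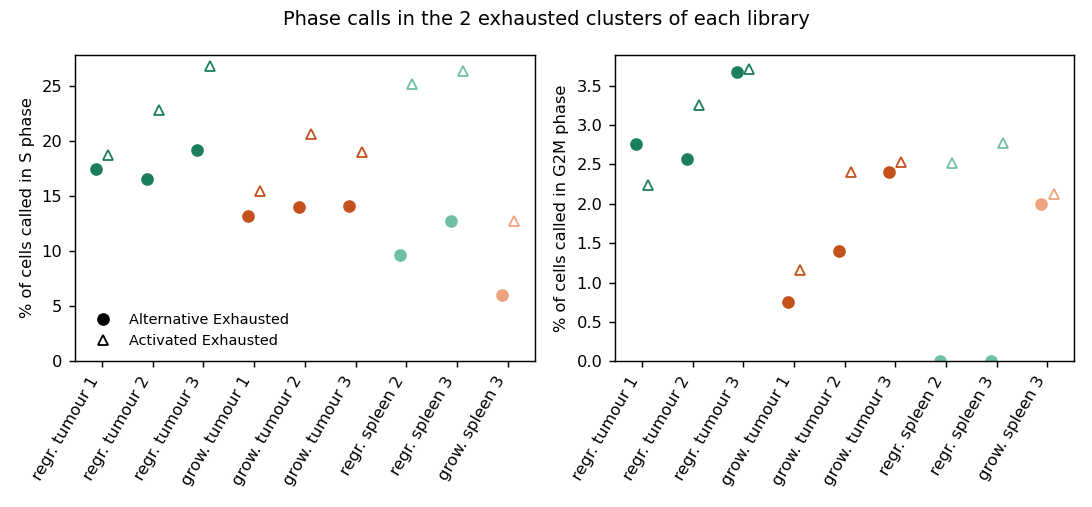
Percent of Alternative (filled circles) and Activated Exhausted cells (open triangles) called in S phase (left) and G2M phase (right) in each of 9 libraries. S-phase calls are fewer in Alternative cells of each library, and Alternative cells of the 3 growing tumours (13.2% to 14.1%) lie below those of the 3 regressing tumours (16.6% to 19.2%).

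The same clone could be read on both sides. In 12 entries with 20 or more cells in each cluster, Alternative cells had the higher median UMIs in 11 and the lower S-phase share in 9. In clone 1 of regressing tumour 3 the median was 8243.5 UMIs in Alternative and 7258 in Activated cells. S-phase calls covered 19.1% of its Alternative and 27.4% of its Activated cells.

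Between tumour groups, S-phase calls within the cluster were fewer in each growing than in each regressing tumour. They averaged 13.8% ± 0.482 in growing and 17.8% ± 1.34 in regressing tumours (SD, n = 3 each), without overlap (exact permutation p = 0.10, the smallest possible; adjusted p = 0.35 over 7 measures). G2M calls averaged 1.52% ± 0.832 and 3.001% ± 0.589, also without overlap (exact permutation p = 0.10, adjusted p = 0.35). They rest on 2, 10 and 7 cells in growing tumours 1, 2 and 3 and on 6, 26 and 60 in regressing ones. The separation was narrow, with growing tumour 3 at 2.41% (7 of 291) and regressing tumour 2 at 2.57% (26 of 1013). S-phase and G2M calls were 2 of the 7 measures (28.6%). Among the 9 clusters with 20 or more cells in each tumour, S-phase shares did not overlap in 22.2% and G2M shares in 11.1%. Activated Exhausted cells had 18.3% ± 2.64 and 22.8% ± 4.04 S-phase calls, with overlap (exact permutation p = 0.30). The S-phase gap between the exhausted clusters did not differ between tumour groups beyond its spread, at -4.59 ± 2.21 in growing and -5.02 ± 3.35 percentage points in regressing tumours (exact permutation p = 0.90).

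Depth was higher on average in growing tumours, where these calls were fewer, but the groups overlapped in depth. Within each group the deepest tumour, replicate 3, had the most S-phase and G2M calls. Median UMIs of Alternative cells averaged 9465 ± 2926 in growing and 6944 ± 1219 in regressing tumours (SD, n = 3 each; exact permutation p = 0.20, adjusted p = 0.35), and the difference was 878 in place of 2522 without growing tumour 3. With all tumours given 1 mix of UMIs per cell, S-phase calls differed by -1.91 in place of -4.01 percentage points and G2M calls by 0.00385 in place of -1.48, with overlap in both (exact permutation p = 0.50 and 1). Of these bands, the 3 lowest held 10, 8 and 18 Alternative cells in growing tumour 3. Leaving out 1 library at a time moved the same-mix S-phase difference from -4.08 without growing tumour 3 (exact permutation p = 0.20) to -0.976 without regressing tumour 3 and -0.3496 without growing tumour 1 (exact permutation p = 0.80 and 1). The G2M difference had no stable sign: it was -1.19 without growing tumour 3, 0.747 without regressing tumour 3 and 0.815 without growing tumour 1 (exact permutation p = 0.50, 0.90 and 0.60). Without the largest named clone of each labelled library the S-phase difference was -4.96 (exact permutation p = 0.10) and the G2M difference -1.01 (exact permutation p = 0.40). Single cells could not be thinned to 1 depth, and the part of free RNA was not tested. The other measures overlapped: median genes averaged 2518 ± 505 and 2120 ± 243, and mitochondrial share 1.91% ± 0.216 and 1.85% ± 0.148, in growing and regressing tumours (exact permutation p = 0.30 and 0.70). With tumours paired by number, growing was higher in 3 of 3 pairs for median genes (by 115, 393 and 684) and for median UMIs (by 930, 2233 and 4401.5), and lower in 3 of 3 for S-phase and G2M calls. Each gave an exact sign-flip p of 0.25, the smallest for 3 pairs.

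Named and Other Alternative cells were compared within 4 tumours for the same measures. G2M calls were more frequent in named cells in 4 of 4, by 1.51 ± 0.953 percentage points (SD; exact sign-flip p = 0.125, the smallest possible; adjusted p = 0.583 over 7 measures). That direction rests on very few Other cells. G2M calls covered 1.00% of 200 and 2.90% of 69 Other cells in regressing tumours 2 and 3. In growing tumours 2 and 3 they covered 1.05% of 191 and 0% of 29. The gap in growing tumour 2 was 0.388 percentage points. S-phase calls were higher in 2 of 4 (mean 0.963 ± 4.96; exact sign-flip p = 0.875). Median UMIs were higher in named cells in 3 of 4, by 165 ± 196 UMIs (exact sign-flip p = 0.25), and by 83.5 without growing tumour 2.

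The Alternative share of exhausted cells also varied with UMIs per cell, and the direction was not the same in each tumour. In regressing tumour 3 it was 41.3% of cells under 4500 UMIs and 68.0% of cells with 12000 or more. In growing tumours 1, 2 and 3 it went from 36.0%, 40% and 38.5% to 64.7%, 51.4% and 51.2%, the first of these from 17 cells (exact 95% interval 38.3 to 85.8). In regressing tumour 2 it was 34.2% under 4500, 44.7% from 8000 to under 12000 and 27.1% at 12000 or more. In regressing tumour 1 it went from 54.2% to 33.3%, the last from 18 cells (13.3 to 59.0). With 1 mix of UMIs per cell the difference between growing and regressing tumours was 1.32 percentage points in place of 2.44 (exact permutation p = 0.80).

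**Figure D5:**
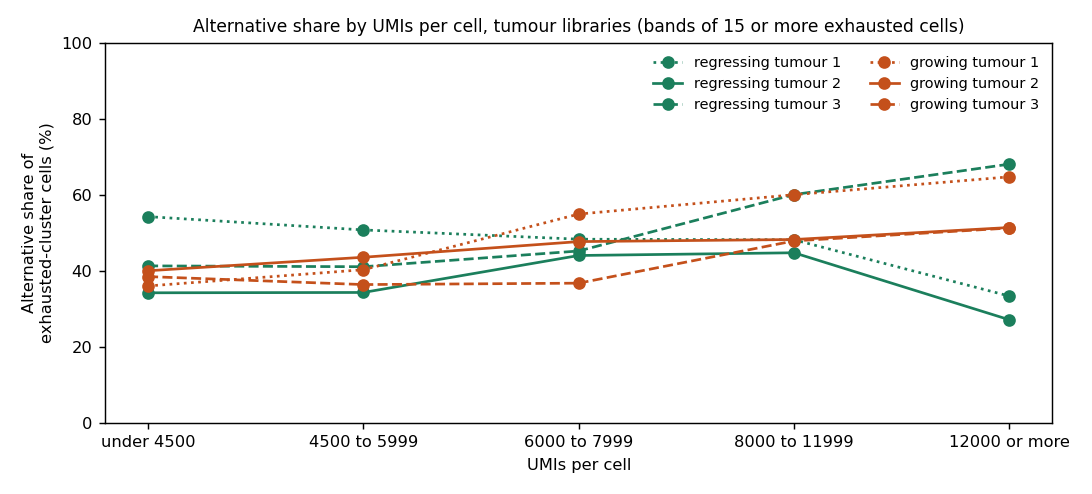
Alternative share of exhausted cells (vertical axis, percent) in 5 bands of UMIs per cell (horizontal axis) for 6 tumours, in bands of 15 or more exhausted cells. From the lowest to the highest band it is higher in the 3 growing tumours and regressing tumour 3 and lower in regressing tumours 1 and 2.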

How the data were processed

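The deposited table of cells was used. Per the file headers, each cell has a raw count of UMIs and of detected genes, a percent of mitochondrial UMIs, and S and G2M scores under Seurat's column names. Phase, cluster (Monocle), clonotype and GLIPH labels are the authors' own. The submitters' processing notes name Cell Ranger, and versions, filters, doublet treatment and genome build are not given in the sources used here. No doublets were called or removed. The lowest number of genes per cell was 501 and the highest mitochondrial share 9.83%. Gene expression per cell was not analysed here.

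The members, lists and tests were chosen with earlier results of these data known. The library was the replicate. Groups of libraries were tested by exact two-sided permutation of the difference of means, and classes within libraries by exact sign flips. Adjustment was by Benjamini and Hochberg. Shares carry exact Clopper-Pearson 95% intervals, and a 0 the limit of 3 counts. The text names the 3 clones of each library with the most Alternative cells, the 5 highest and 5 lowest shares among those with 20 exhausted cells, and those with 10 in each of 2 tumours. Clones named for a shared chain or ending were chosen after their values were seen. Similarity groups were named at 50 exhausted cells. Alternatives were 3000 or more UMIs, the kit, the denominator, limma on logit shares, leaving out each library, and the replicate number as a block. Deviations of the 13 clusters from the group mean correlated at 0.830, 0.302 and 0.627 in tumours of the same number, the first being the 3′ pair. Those of different number reached 0.498. The main tests of tumour groups were unpaired, and pairing by number was used only as an alternative. Interval and test functions were tested on simulated data. Clones are numbered because amino acid sequences of receptors are not printed here. SciPy 1.17.1, pandas 2.3.3 and limma 3.58.1 were used.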

Additional observations from a re-analysis of the deposited data

How the results depend on the processing

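The Alternative share of all cells, growing minus regressing tumours, was -0.0242 percentage points. It turned sign with non-naive cells (0.486) or non-dividing cells (3.02) in the denominator, with limma on logit shares (0.0300 logit units) and in 5′ libraries without their largest clones (1.45, chosen after seeing the data). Leaving out 1 library gave -1.64 to 3.12. The Alternative share of exhausted cells gave -1.93 to 5.31 and the named share of Alternative cells -16.2 to 20.2. Tumour minus spleen was 13.6 to 16.8 for the share of all cells, with exact p from 0.0667 to 0.10 since fewer libraries cannot reach a lower p, and 0.730 to 7.45 within exhausted cells. Tumours and spleens of the same number correlated at -0.223, 0.127 and 0.342. Whether they came from 1 mouse is not given in the labels, and these correlations cannot decide it. With the replicate block the tumour minus spleen difference was 15.5 (exact sign-flip p = 0.25, the smallest for 3 pairs). No other call changed under the replicate block. Named minus Other within exhausted cells was -0.0906 at 3000 or more UMIs and -6.21 to 7.44 without 1 library. The clone concentration difference ranged from -7.34 to 3.39. For measures of Alternative cells by tumour group, the median G2M score difference of -0.000238 turned to 8.53e-05 at 3000 or more UMIs and 0.00198 in 5′ libraries, with -0.00168 to 0.00146 without 1 library. The mitochondrial difference ranged from -0.0586 to 0.145, and the G2M-phase difference was 0.00385 with 1 mix of UMIs. S-phase calls, named minus Other, ranged from -0.771 to 2.87. With a minimum of 50 exhausted cells, 18 clone entries were compared, 8 above and 5 below, 13 in either direction, since fewer clones qualify; with a minimum of 10, 62 were compared, 16 above and 19 below. The remaining 157 alternative values kept their direction and their side of the threshold or, for counts, lay within 1.5 times the reported count. The number of cells limits small clones: an entry of 20 exhausted cells has an interval of 50.9 to 91.3 around 75.0%.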

Other observations

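Receptor labels did not cover the exhausted clusters evenly. In regressing tumour 2, 52.9% of Alternative and 44.6% of Activated Exhausted cells carried no label. In the other 3 labelled tumours the unlabelled share was lower in Alternative cells, at 23.1% against 30.6% in regressing tumour 3, 14.8% against 21.6% in growing tumour 2 and 17.2% against 21.8% in growing tumour 3. Unlabelled exhausted cells enter the shares by library but not the shares by clone.

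Names with a pair of alpha chains were 31.8% of named Alternative cells and 16.3% of named Activated cells in growing tumour 2 (133 and 65 cells). In growing tumour 3 they were 8.02% and 1.83% (17 of 212 and 4 of 219 cells). The shares lay close in regressing tumour 3, at 6.91% and 6.46% (82 of 1187 and 60 of 929). They also lay close in regressing tumour 2, at 3.97% and 3.71% (11 of 277 and 27 of 728). The Alternative share was thus the higher in 4 of 4 tumours, but barely so in the regressing ones, and this was not tested. Part of the difference in growing tumour 2 lies in its clone 5, which had 62 Alternative and 11 Activated cells.

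Clones differed in their share of cells at Initial Activation, another cluster of the authors. In regressing tumour 2 the median was 7.69% in 3 clones above the rest and 19.2% in 4 clones below. The medians were 7.10% and 8.84% in regressing tumour 3 (3 and 6 clones) and 3.20% and 4.55% in growing tumour 2 (7 and 2 clones). Growing tumour 3 had 1 clone of each kind, at 1.20% and 2.60%. The cluster itself held 15.97%, 14.1%, 10.9% and 9.496% of all cells in these libraries. A clone's shares belong to 1 total and were not tested.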
